A study of Mus musculus with 7 samples.

Results

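The genes described here encode matrix metalloproteinases (MMP), ADAM and ADAMTS proteases, the related ADAMTS-like (ADAMTSL) proteins and the tissue inhibitors of metalloproteinases (TIMP), measured by RNASeq in contused mouse spinal cord. Members were taken by name: protein-coding genes whose symbol is Mmp, Adam, Adamts, Adamtsl or Timp followed directly by a number, with a mean of at least 10 counts over all libraries. Of 83 genes with such symbols, 63 reached that mean among the 21965 genes of the table, namely 18 MMP, 18 ADAM, 18 ADAMTS, 5 ADAMTSL and 4 TIMP genes. All 63 also passed the filter on low counts of the test. The 20 genes below the mean included *Adamts13*, which encodes the protease that trims von Willebrand factor, with a mean of 1.14 counts.

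Both groups received a moderate contusion of 50 kdyn at T9 and were killed at dpi 3, when a 5 mm segment centered on the injury epicenter was taken after perfusion with PBS. The *Bmal1-/-* mice (*Arntl* tm1Bra, C57BL/6J background) carry a germline deletion in every tissue and were bred from heterozygous parents, while WT C57BL/6J mice were mostly purchased and included 1 littermate of the knockouts. Mice were 8 to 10 weeks old, and each library came from 1 mouse, which gave 3 *Bmal1-/-* libraries (2 females and 1 male) and 4 WT libraries (2 females and 2 males). The comparison asks how the transcriptome of the injured cord differs without the clock transcription factor BMAL1, and the libraries hold no uninjured cord.

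MMPs are zinc proteases that cut collagens, laminins and other matrix proteins. ADAMs are mostly membrane-bound proteins, and the catalytic ones are sheddases that release the outer domains of receptors and ligands. ADAMTS proteases are secreted enzymes that cut proteoglycans, procollagens and matrix assembly proteins. TIMPs block the active site of MMPs, and TIMP3, which stays bound to the matrix, also blocks several ADAM and ADAMTS enzymes. In injured spinal cord these enzymes are known for opening the blood spinal cord barrier, for scar remodelling and for digesting chondroitin sulfate proteoglycans. Most are made as inactive proenzymes, so transcript levels do not give protease activity.

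Libraries held 38529644 to 44096737 counts. The whole-gene count of the targeted gene, *Arntl*, was higher in the knockouts: it had 24.1, 24.2 and 22.5 CPM (counts scaled by library size) in the libraries labelled *Bmal1-/-* against 14.7, 15.3, 11.9 and 13.4 CPM in WT (log2 fold change, log2FC, 0.77 with a standard error, SE, of 0.10, edgeR adjusted p = 0.0155). That count sums all exons, so it does not show whether the deleted part was transcribed. Known BMAL1 targets, picked as a check of the labels with results known, were lower: *Nr1d1* had 5.31, 5.41 and 7.28 CPM against 36.4, 36.8, 29.2 and 34.4 CPM, and *Dbp* had 8.72, 7.8 and 8.83 CPM against 27.5, 29.4, 25.3 and 39.3 CPM (edgeR adjusted p = 0.000456 and 0.00328). *Cry1*, a repressor of BMAL1, was higher, with 41.5, 40.2 and 44.8 CPM against 15, 12.9, 13.1 and 15.4 CPM (edgeR adjusted p = 0.000456). Both targets overlap a gene on the opposite strand. Groups are named as labelled, and higher or lower always means against WT. Summed markers of neurons, astrocytes and oligodendrocytes were present in every library, as the labelled tissue requires. Summed markers of several other cell types were separate and lower in the libraries labelled *Bmal1-/-*. Skeletal muscle genes summed to 4.45 to 5.74 CPM in those libraries against 40.3 to 53.1 CPM in WT. Schwann cell genes summed to 150 to 206 and 228 to 541 CPM, and red cell genes to 19.9 to 46.7 and 110 to 334 CPM. Dividing cell genes summed to 177 to 244 and 294 to 519 CPM. Endothelial genes summed to 355 to 407 and 421 to 697 CPM, and pericyte and smooth muscle genes to 277 to 336 and 356 to 452 CPM. Summed neuron markers were separate in the other direction by a narrow margin, with 3560, 3550 and 4310 CPM against 3260, 3500, 1490 and 2610 CPM. Of the 6 neuron markers, 2 were separate on their own. The pericyte and smooth muscle list was mixed gene by gene. Of its 7 markers, 4 had negative and 3 had positive log2FC values. In 2 the groups were separate and lower, and in 1, *Abcc9*, separate and higher. No marker of these lists was at 0 in all libraries. Summed macrophage markers overlapped between groups, with 2120 to 2890 CPM in the libraries labelled *Bmal1-/-* against 2070 to 4110 CPM in WT. Sums also overlapped for microglia (384 to 442 and 390 to 522 CPM) and oligodendrocyte precursors (889 to 1000 and 820 to 907 CPM). The same held for oligodendrocytes (23000 to 28400 and 23400 to 34500 CPM). Fibroblast markers followed single mice, with 487, 2340 and 409 CPM in *Bmal1-/-* replicates 1 to 3 and 1220 to 1940 CPM in WT. WT replicate 3 stood apart on the first principal components. In such bulk samples, fewer cells of a type and less RNA per cell cannot be told apart.

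At an adjusted p under 0.05, the libraries labelled *Bmal1-/-* had 4 of the 63 members below WT and 0 above it (quasi-likelihood F test of edgeR, adjusted by Benjamini-Hochberg over the 15743 genes tested). These were *Timp3*, a matrix-bound inhibitor, the metalloproteinase *Mmp19*, and the secreted proteases *Adamts8* and *Adamts7*. Over all genes tested, 0.915% were called lower and 0.654% higher, or 1.57% in either direction. At an unadjusted p under 0.05, where 12 members were lower and 4 higher, the shares of all genes were 12.2% and 8.64%. DESeq2 called 10 members lower and 1 higher, against 5.63% and 3.5% of the genes it tested. The signs of the 63 fitted values were nearly balanced, with 34 lower and 29 higher, and their median log2FC was -0.08 beside -0.006 for all genes. The families had median log2FC values of -0.37 for TIMP, -0.15 for ADAMTS, -0.09 for ADAM, -0.08 for MMP and 0.03 for ADAMTSL genes, and none of these medians was tested. With 1 library left out, they ran from -0.40 to -0.29 for TIMP, -0.32 to -0.03 for ADAMTS, -0.13 to -0.07 for ADAM, -0.23 to 0.03 for MMP and -0.12 to 0.17 for ADAMTSL genes. The MMP median changed sign without WT replicate 3 and the ADAMTSL median without *Bmal1-/-* replicate 2 or WT replicate 1. The ADAMTS median was -0.04 without *Bmal1-/-* replicate 1, -0.03 without *Bmal1-/-* replicate 3 and -0.32 without *Bmal1-/-* replicate 2.

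**Figure D1:**
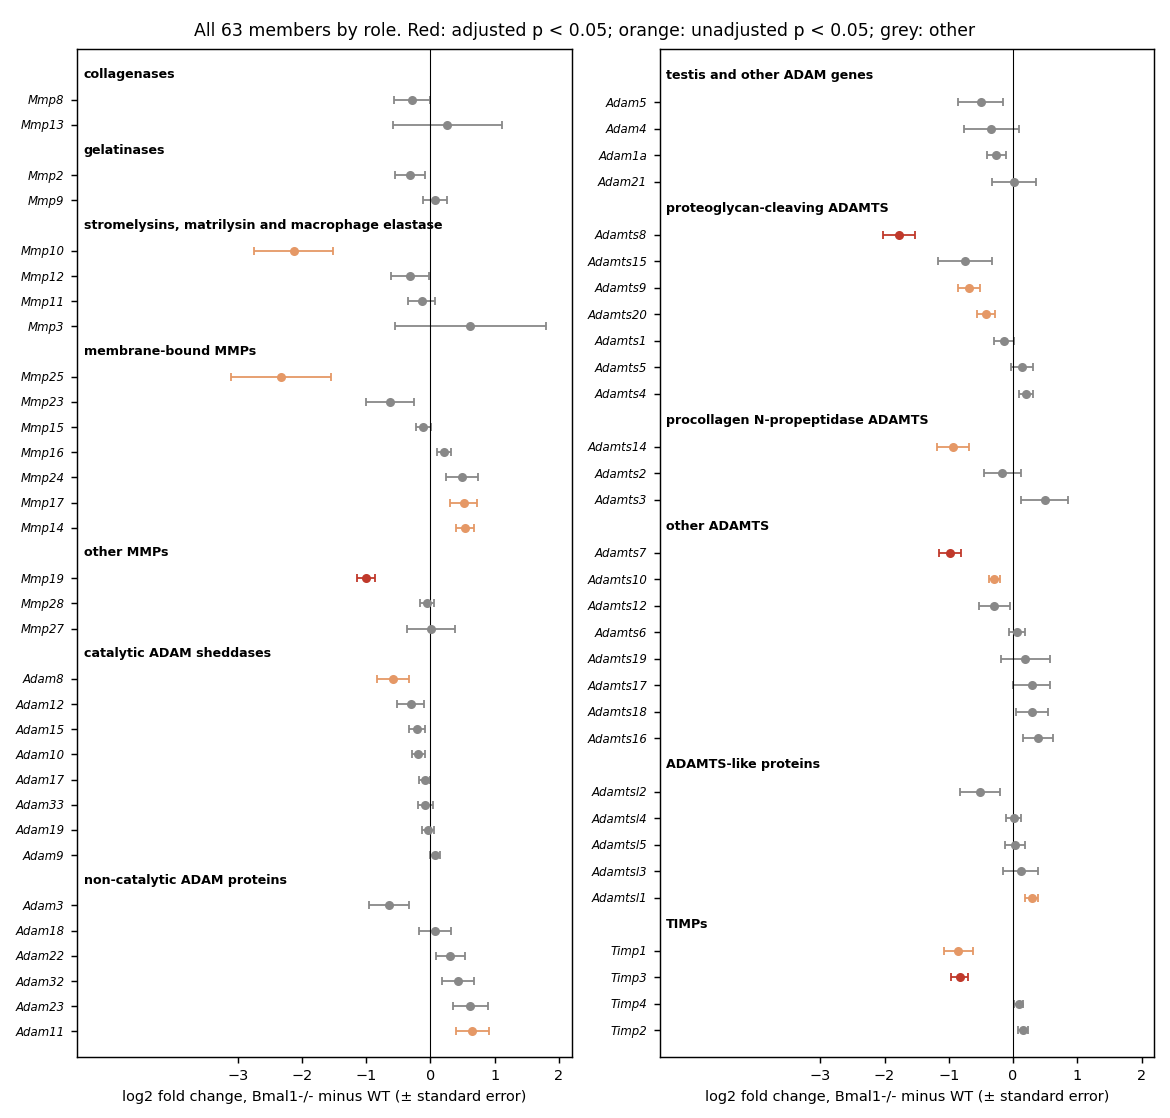
Fitted log2FC (horizontal axis, libraries labelled *Bmal1-/-* minus WT, bars are 1 standard error) of all 63 members, grouped by role. The 4 red points, *Mmp19*, *Adamts8*, *Adamts7* and *Timp3*, lie left of 0, and the orange points that miss the adjusted threshold lie on both sides.

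The inhibitors made up 44.9% of the summed level of all members per kilobase of exon. *Timp3* (ENSMUSG00000020044, GRCm38 chromosome 10, 86300372 to 86349506, plus strand) restrains MMPs, several ADAMs including ADAM17, and VEGF receptor signaling in vessel walls. It had 172, 190 and 157 CPM in *Bmal1-/-* replicates 1 to 3 and 320, 350, 251 and 311 CPM in WT replicates 1 to 4. Every library labelled *Bmal1-/-* was below the lowest WT library, and the means were 173 ± 16.8 CPM (SD, n = 3) and 308 ± 41.4 CPM (SD, n = 4). The log2FC was -0.83 (SE 0.13, edgeR adjusted p = 0.0289). *Timp3* lies within *Syn3*, a synaptic vesicle gene on the opposite strand, and the strand setting of the counting is not given in the sources used here. *Syn3* itself had 7.85, 6.59 and 11.3 CPM in the libraries labelled *Bmal1-/-* against 6.05, 5.94, 2.2 and 6.53 CPM in WT, and its part in the *Timp3* count was not tested.

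The promoter of *Timp3* is shown because it was the only one of the 4 called members found in the RefSeq promoter table. The bases shown are 210 of the 250 before the RefSeq start, up to the first exon of GENCODE (GRCm38.p6, chr10:86300162-86300371, plus strand), with 63.8% G and C. None of the motifs searched was present in the 250 bases, so no letter is in capitals.
Timp3: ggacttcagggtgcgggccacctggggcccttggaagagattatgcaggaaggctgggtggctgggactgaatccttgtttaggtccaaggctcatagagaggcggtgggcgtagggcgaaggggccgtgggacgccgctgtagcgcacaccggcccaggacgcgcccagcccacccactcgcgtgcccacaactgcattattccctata

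The other inhibitors did not follow *Timp3* as a family. *Timp1*, the soluble inhibitor that is induced by injury and cytokines, had 75, 84.9 and 53.1 CPM in the libraries labelled *Bmal1-/-* against 106, 119, 174 and 112 CPM in WT. The groups did not overlap, with WT replicate 3 far above the other WT libraries, and the difference missed the threshold (log2FC -0.85, SE 0.22, edgeR adjusted p = 0.116, DESeq2 adjusted p = 0.00754). *Timp2*, which inhibits MMPs and also assists activation of pro-MMP2 by MMP14, had 523, 570 and 560 CPM against 522, 512, 457 and 482 CPM. Its *Bmal1-/-* libraries lay just above WT, by 0.16 on the log2 scale (SE 0.08, edgeR adjusted p = 0.291). *Timp4* had 123, 113 and 114 CPM against 103, 106, 109 and 119 CPM, and its groups overlapped. It lies within *Syn2* on the opposite strand, which had 165, 176 and 213 CPM against 149, 154, 64.7 and 131 CPM.

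Per kilobase of exon, the summed TIMP level was 261, 284 and 242 in the libraries labelled *Bmal1-/-* against 310, 326, 363 and 308 in WT, in CPM per kilobase. All *Bmal1-/-* values were below all WT values. The largest part of the difference lay in *Timp1*, which was not called, with means of 80.0 per kilobase against 144 in WT. *Timp3* had means of 21.2 against 37.8. The other inhibitors went the other way, with 141 against 127 for *Timp2* and 19.8 against 18.6 for *Timp4*. The make-up of this sum differed as well: *Timp2* gave 51.5%, 51.4% and 59.4% of it in the libraries labelled *Bmal1-/-* against 43.2%, 40.3%, 32.3% and 40.2% in WT, while *Timp1* gave 32.4%, 33.6% and 24.7% against 38.4%, 41%, 54.1% and 40.8%. *Timp2* gave the largest share in every library labelled *Bmal1-/-* and in WT replicate 1. *Timp1* gave the largest share in WT replicates 2, 3 and 4, by a narrow margin in replicates 2 and 4. The sums and shares were not tested. The summed levels of the protease families overlapped between groups, with 72.5 ± 11.2 (SD, n = 3) and 72.0 ± 5.54 (SD, n = 4) CPM per kilobase for MMP genes, 197 ± 2.95 and 208 ± 18.6 for ADAM, 61.9 ± 7.36 and 63.4 ± 2.84 for ADAMTS, and 28.9 ± 4.43 and 28.5 ± 1.79 for ADAMTSL genes.

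**Figure D2:**
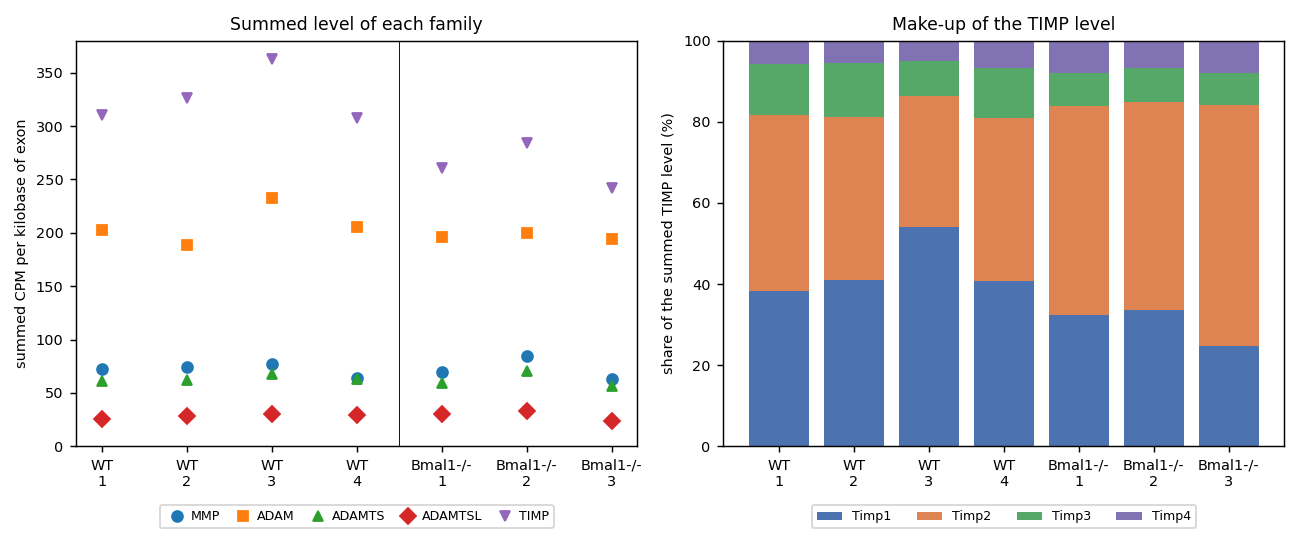
Left, summed CPM per kilobase of exon for each family in each library, on an axis from 0. Right, the percent of the summed TIMP level given by each TIMP gene; the TIMP sum is 242 to 284 in the libraries labelled *Bmal1-/-* against 308 to 363 in WT, and the *Timp2* share is larger in the former.

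Among the MMPs, *Mmp19* was the only called gene. It encodes a secreted metalloproteinase that lacks the gelatinase inserts and cuts basement membrane components such as type IV collagen, laminin and nidogen (ENSMUSG00000025355, GRCm38 chromosome 10, 128790910 to 128800824, plus strand). Its level was 18, 19.2 and 14.2 CPM in *Bmal1-/-* replicates 1 to 3 and 30.8, 31.9, 40.9 and 34.5 CPM in WT replicates 1 to 4. No library labelled *Bmal1-/-* reached 20 CPM and no WT library fell below 30 CPM. The means were 17.1 ± 2.61 (SD, n = 3) and 34.5 ± 4.53 CPM (SD, n = 4), a fold of 0.496 (log2FC -1.01, SE 0.14, edgeR adjusted p = 0.0193). Its exons overlap those of *Tmem198b* on the opposite strand, which was also called lower, with 29.6, 28 and 24.5 CPM against 35.3, 38.6, 40.8 and 42.5 CPM (log2FC -0.52, SE 0.09, edgeR adjusted p = 0.0481). Reads of the pair can be told apart only if strand was used in counting.

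Collagenases and gelatinases, which unwind and digest fibrillar collagen and its denatured form, showed no called gene among 4. *Mmp9*, the gelatinase stored in neutrophils and best known for barrier opening after spinal cord injury, had 9.05, 14.1 and 9.06 CPM in the libraries labelled *Bmal1-/-* against 9.11, 10.7, 12 and 8.95 CPM in WT. These ranges overlapped, and the log2FC was 0.07 (SE 0.19, edgeR adjusted p = 0.828). *Mmp2*, the gelatinase made by fibroblasts and astrocytes, had 18.4, 30.4 and 14.5 CPM against 26.8, 28.4, 26.8 and 23.2 CPM, where *Bmal1-/-* replicate 2 was above every WT library and the others were below. *Mmp8*, the neutrophil collagenase, had 5.41 to 6.3 CPM against 4.9 to 11.2 CPM, with WT replicate 3 highest. Neutrophil markers summed to 28.2 to 61.5 CPM in the libraries labelled *Bmal1-/-* against 35.5 to 127 CPM in WT, also highest in WT replicate 3, and their part in these values was not tested.

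The stromelysins and macrophage elastase, which cut a wide range of matrix proteins, were low and uneven. *Mmp12*, the macrophage elastase, had 4.68, 5.57 and 3.05 CPM against 4.92, 4.11, 8.26 and 4.84 CPM, and *Mmp11*, the most abundant of this class per kilobase, had 12.7 to 16.8 CPM against 12.8 to 22.9 CPM. In both genes the groups overlapped and WT replicate 3 was highest. *Mmp3*, an activator of other pro-MMPs, had 0.305, 8.7 and 0.584 CPM in the libraries labelled *Bmal1-/-* against 1.68, 5.3, 0.824 and 0.58 CPM in WT. Its level spanned more than an order of magnitude within the first group, so that the standard error of the log2FC of 0.62 was 1.18. *Mmp10*, its close relative, was at the edge of detection, with 7, 1 and 10 counts against 27, 12, 37 and 29 counts. Every library labelled *Bmal1-/-* was below the lowest WT library, and the log2FC of -2.13 (SE 0.62) missed the threshold (edgeR adjusted p = 0.14, DESeq2 adjusted p = 0.0301).

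Membrane-bound MMPs act at the cell surface, and *Mmp14*, the collagenase that also activates pro-MMP2, was the most abundant MMP per kilobase, with 21.1 CPM per kilobase in the libraries labelled *Bmal1-/-* against 14.6 in WT. It had 128, 140 and 110 CPM in the former and 82.5, 73.8, 109 and 82.6 CPM in the latter. The groups were separate by a narrow margin, because *Bmal1-/-* replicate 3 and WT replicate 3 lay next to each other. The log2FC was 0.53 (SE 0.14, edgeR adjusted p = 0.12, DESeq2 adjusted p = 0.018). Without WT replicate 3 it was 0.66 (SE 0.10, edgeR adjusted p = 0.0169). *Mmp17*, which is held at the surface by a GPI anchor, had 23.6, 24.2 and 25.9 CPM against 18.5, 21.7, 10.8 and 17.8 CPM, a log2FC of 0.52 (SE 0.21, edgeR adjusted p = 0.229). WT replicate 3 was the lowest there. Summed neuron markers were also lowest in that library, at 1490 CPM, and were higher in every library labelled *Bmal1-/-* (3550 to 4310 CPM) than in every WT library (up to 3500 CPM), and their part in *Mmp17* was not tested.

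**Figure D3:**
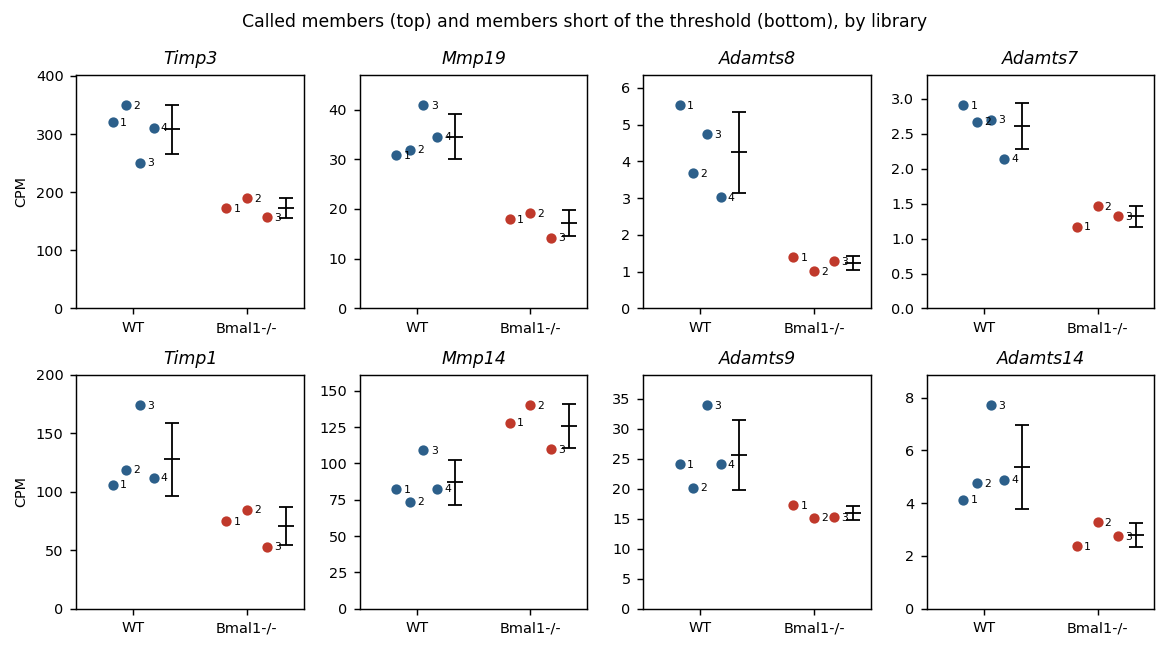
CPM in each library (points, numbered by replicate; the offset bar is the mean ± SD, n = 4 WT and n = 3 *Bmal1-/-*) of the 4 called members in the top row and of *Timp1*, *Mmp14*, *Adamts9* and *Adamts14*, which missed the threshold, below. In all 8 genes the groups do not overlap, and only *Mmp14* is higher in the libraries labelled *Bmal1-/-*.

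*Adamts8* had the largest fold change of the called members. It encodes a secreted proteoglycan-cleaving protease with antiangiogenic repeats (ENSMUSG00000031994, GRCm38 chromosome 9, 30942562 to 30963838, plus strand). The level was 1.4, 1.02 and 1.29 CPM in *Bmal1-/-* replicates 1 to 3 and 5.53, 3.68, 4.74 and 3.03 CPM in WT replicates 1 to 4. All 4 WT libraries were above 3 CPM and all 3 others below 1.5 CPM. The means were 1.24 ± 0.195 (SD, n = 3) and 4.24 ± 1.11 CPM (SD, n = 4), a fold of 0.292 (log2FC -1.78, SE 0.25, edgeR adjusted p = 0.0203). Its neighbour *Adamts15*, 20.1 kilobases away and chosen after its values were seen, had 3.86, 7.68 and 3.98 CPM against 12.5, 11.6, 4.92 and 5.67 CPM, and these groups overlapped.

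The abundant proteoglycan-cleaving proteases did not share the pattern of *Adamts8*. *Adamts4*, the best known aggrecanase of injured cord and the most abundant ADAMTS per kilobase, had 120, 133 and 111 CPM against 92, 101, 112 and 119 CPM (log2FC 0.20, SE 0.11, edgeR adjusted p = 0.307). *Adamts1*, which cuts versican and aggrecan and binds VEGF, had 87.5, 112 and 80.8 CPM against 104, 92.8, 123 and 90.6 CPM. *Adamts5*, a further aggrecanase, had 43.6, 52.8 and 34.1 CPM against 37.6, 44.2, 44.5 and 31.5 CPM. The groups overlapped in all 3 genes. *Adamts9*, a versican-cleaving protease expressed in vessels, had 17.3, 15.2 and 15.3 CPM against 24.1, 20.2, 33.9 and 24.1 CPM, all lower than WT, with a log2FC of -0.68 (SE 0.17, edgeR adjusted p = 0.107, DESeq2 adjusted p = 0.00957). A noncoding gene on the opposite strand, *A730049H05Rik*, overlaps it and had 2.82 to 3.99 CPM against 5.22 to 8.74 CPM.

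The last called member was *Adamts7*, which cuts cartilage oligomeric matrix protein and is known from injured vessel walls (ENSMUSG00000032363, GRCm38 chromosome 9, 90163069 to 90208071, plus strand). It had 1.17, 1.46 and 1.32 CPM in *Bmal1-/-* replicates 1 to 3 and 2.91, 2.67, 2.7 and 2.14 CPM in WT replicates 1 to 4. The groups were apart, with means of 1.32 ± 0.147 (SD, n = 3) and 2.61 ± 0.325 CPM (SD, n = 4), a log2FC of -0.98 (SE 0.17, edgeR adjusted p = 0.0416). *Tbc1d2b*, which overlaps it on the opposite strand, had a log2FC of -0.11 (SE 0.06). *Adamts10*, a fibrillin-binding protease, was lower by a small step, with 34.7, 39.4 and 33.8 CPM against 42.9, 47.1, 43.7 and 42.4 CPM (log2FC -0.29, SE 0.08, edgeR adjusted p = 0.11, DESeq2 adjusted p = 0.0128). Among the procollagen N-propeptidases, which trim fibrillar procollagens, *Adamts14* had 2.36, 3.27 and 2.74 CPM against 4.13, 4.76, 7.71 and 4.89 CPM (log2FC -0.94, SE 0.25, edgeR adjusted p = 0.112, DESeq2 adjusted p = 0.00956), again without overlap. *Adamts2*, the main enzyme of that class, had 12.9, 28.4 and 14 CPM against 21.1, 25, 17.3 and 19.5 CPM, so *Bmal1-/-* replicate 2 was above all WT libraries and the other two were below. *Adamtsl4*, the most abundant of the noncatalytic ADAMTS-like proteins, which bind fibrillin microfibrils, had 70.9 to 92.8 CPM against 74.6 to 95.9 CPM.

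The catalytic ADAM sheddases were abundant and close between groups, and 0 of 8 were called. *Adam10*, the main sheddase of Notch, N-cadherin and amyloid precursor protein, had 162, 160 and 152 CPM in the libraries labelled *Bmal1-/-* against 180, 164, 212 and 167 CPM in WT. All 3 were below WT by a small margin (log2FC -0.19, SE 0.10, edgeR adjusted p = 0.29). *Adam17*, which releases TNF and its receptors, had 80, 87 and 72.8 CPM against 80.9, 77.5, 95.2 and 86.9 CPM, a log2FC of -0.09 (SE 0.09, edgeR adjusted p = 0.552). *Adam9*, the most abundant sheddase per kilobase, had 177, 195 and 167 CPM against 162, 161, 183 and 180 CPM. *Adam8*, a sheddase of leukocytes chosen after its values were seen, had 117 to 121 CPM against 154, 119, 266 and 171 CPM, and only WT replicate 2 lay within the narrow range of the other group. Among the noncatalytic ADAMs, *Adam11*, a neuronal surface protein, had 78.1, 91.8 and 98.2 CPM against 63.7, 73.5, 31.5 and 58.9 CPM (log2FC 0.65, SE 0.26, edgeR adjusted p = 0.219). Its groups were separate with WT replicate 3 lowest, as were those of the summed neuron markers, whose part in it was not tested. *Adam1a*, the most abundant per kilobase of the ADAM genes grouped here as testis and other, had 3.32 to 4.55 CPM against 4.09 to 5.2 CPM. It shares exons with *Mapkapk5* on its own strand.

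Separation of the groups was frequent in all genes. The libraries labelled *Bmal1-/-* all lay below WT in 10 members and all above in 6, while 13.5% of all genes tested did so downward and 13.4% upward. The members with separate and lower groups were *Timp1*, *Timp3*, *Mmp10*, *Mmp19*, *Adam10*, *Adamts7*, *Adamts8*, *Adamts9*, *Adamts10* and *Adamts14*. Those with separate and higher groups were *Timp2*, *Mmp14*, *Mmp17*, *Mmp24*, *Adam11* and *Adam23*, of which *Mmp24* and *Adam23* were chosen after their values were seen. Summed neuron markers were also separate and higher in the libraries labelled *Bmal1-/-*, though only 2 of the 6 markers were so on their own. *Mmp14* was highest of WT in replicate 3 (109 CPM), where the neuron sum was lowest (1490 CPM). The part of neurons in these 6 genes was not tested.

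The 4 calls depended on which libraries were included, and all 4 held without WT replicate 3. With 1 library left out, *Mmp19* and *Adamts8* each kept their call in 3 of 7 fits, and *Timp3* and *Adamts7* each in 1 of 7, namely the fit without WT replicate 3. The sizes hardly moved, from -0.92 to -0.77 for *Timp3*, -1.1 to -0.90 for *Mmp19*, -1.91 to -1.63 for *Adamts8* and -1.06 to -0.90 for *Adamts7* on the log2 scale. Without WT replicate 3, 6 members were lower and 1 was higher (2.8% and 1.86% of all genes), and without it and *Bmal1-/-* replicate 2, 10 were lower and 1 was higher (3.95% and 1.73%). No call was left without *Bmal1-/-* replicate 1, *Bmal1-/-* replicate 3 or WT replicate 1. Markers of skeletal muscle, Schwann cells, red cells, dividing cells, endothelial cells and pericytes were summed lower in the same libraries as the 4 called members. In the pericyte and smooth muscle list, 3 of 7 markers had positive log2FC values. The part of these cell types in the calls was not tested.

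**Figure D4:**
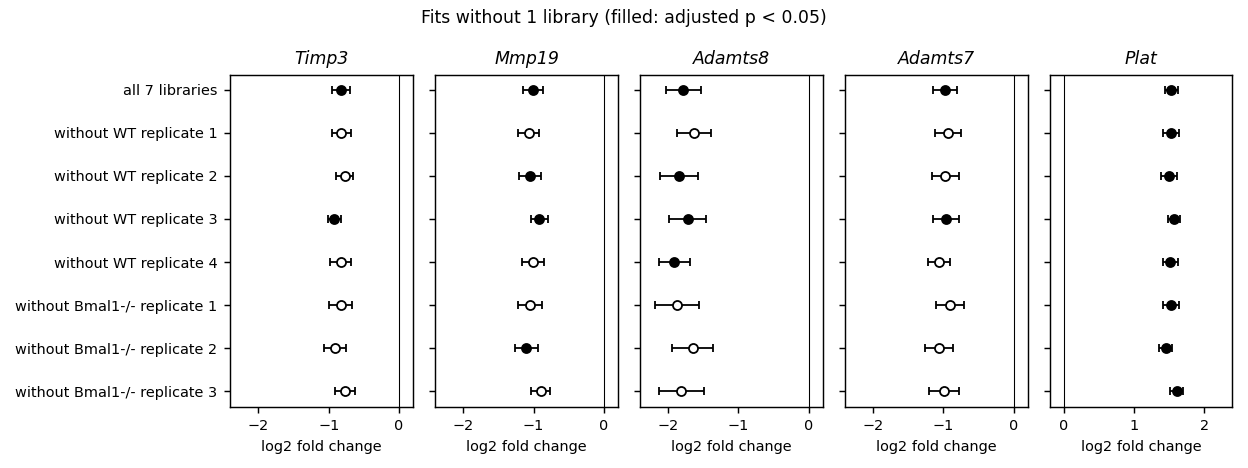
Log2 fold change with its standard error of the 4 called members and of *Plat*, from all 7 libraries and with each library left out; filled points have an adjusted p under 0.05. The position of each gene stays nearly fixed while the call of the members comes and goes, and *Plat* is called in every fit.

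Many members varied between mice of the same group. Across the libraries labelled *Bmal1-/-*, 22 members varied over 1.5-fold, and in 16 of these replicate 2 was highest. Across WT, 32 members varied over 1.5-fold. *Mmp13*, a collagenase chosen after its values were seen, had 1.96, 9.89 and 0.888 CPM in the libraries labelled *Bmal1-/-* and 2.75, 7.15, 3.12 and 1.24 CPM in WT. The highest libraries were *Bmal1-/-* replicate 2 and WT replicate 2, as for *Mmp3*. The same libraries led the summed arachnoid and dural fibroblast markers, with 40.3, 305 and 26.2 CPM against 192, 273, 127 and 108 CPM. Of these markers, *Slc47a1* and *Mgp* were highest in *Bmal1-/-* replicate 2, and *Foxc2* and *Aldh1a2* in WT replicate 2. *Aldh1a2* had 23.6 CPM in *Bmal1-/-* replicate 2, below every WT library. The part of those cells in *Mmp3* and *Mmp13* was not tested. *Mmp25*, a GPI-anchored MMP of leukocytes also chosen after its values were seen, had 1.19, 0.766 and 0.99 CPM against 11.1, 5.63, 1.97 and 1.16 CPM. Its WT values spread over nearly an order of magnitude and WT replicate 4 lay within the other group (log2FC -2.33, SE 0.78, edgeR adjusted p = 0.178, DESeq2 adjusted p = 0.0141). In WT replicates 1 to 4, neutrophil markers summed to 35.5, 80.6, 127 and 61.1 CPM and Schwann cell markers to 409, 541, 292 and 228 CPM, and the part of either in *Mmp25* was not tested.

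**Figure D5:**
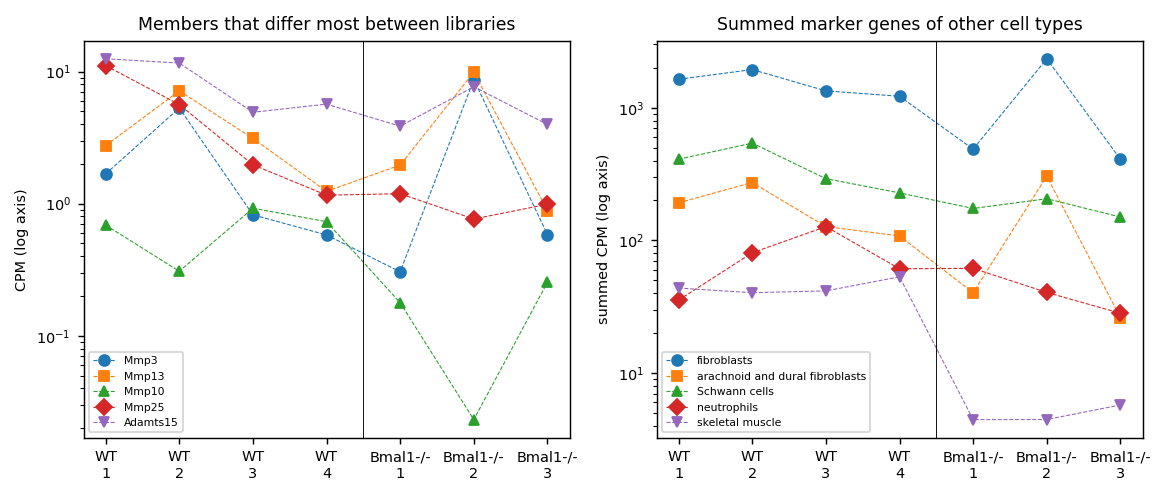
Left, CPM on a log axis of *Mmp3*, *Mmp13*, *Mmp10*, *Mmp25* and *Adamts15* in each library; lines join libraries only to guide the eye. Right, summed CPM on a log axis of marker genes of fibroblasts, arachnoid and dural fibroblasts, Schwann cells, neutrophils and skeletal muscle. *Mmp3*, *Mmp13* and the sum of the arachnoid and dural fibroblast markers are highest in *Bmal1-/-* replicate 2.

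*Mmp13*, *Mmp12*, *Mmp3*, *Mmp10*, *Mmp8* and *Mmp27* lie beside each other in a cluster on chromosome 9, and each of the first 4 has an AP-1 site just before a RefSeq start. This site, bound by FOS and JUN dimers, was searched as TGANTCA on both strands of the 250 bases before each RefSeq start (GRCm38.p6). It was found in 5 of the 43 promoters of the 39 members in the table (11.6%, against 6.75% of 32851 promoters), and 4 of the 5 are these neighbours. They are shown because *Mmp3* and *Mmp10*, 46.4 kilobases apart and alike in this element, had different orders of libraries: *Bmal1-/-* replicate 2 was highest of all for *Mmp3* and lowest of all for *Mmp10*. Capitals mark the AP-1 site, which starts 35, 44, 46 and 63 bases before the start of *Mmp13*, *Mmp12*, *Mmp3* and *Mmp10*. For *Mmp12* this is the later of its RefSeq starts, inside the gene, and the 250 bases before its first start, chr9:7344147-7344396, hold no AP-1 site. All 4 windows are on the plus strand, as the genes are.
Mmp13 (chr9:7272452-7272512): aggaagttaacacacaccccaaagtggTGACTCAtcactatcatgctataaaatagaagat
Mmp12 (chr9:7347303-7347363): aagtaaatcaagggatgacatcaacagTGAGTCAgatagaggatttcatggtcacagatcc
Mmp3 (chr9:7445749-7445809): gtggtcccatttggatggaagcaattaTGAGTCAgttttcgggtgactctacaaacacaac
Mmp10 (chr9:7502252-7502312): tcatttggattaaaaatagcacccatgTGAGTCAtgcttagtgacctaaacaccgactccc

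Clock motifs were searched in the same windows on both strands. The E-box CACGTG, the sequence bound by BMAL1 and its partners, was present in 3 promoters (6.98%, against 6.02% of all), those of *Adam10*, *Adam19* and *Adamts17*. The D-box TTATGNAA was in 0 (3.07% of all) and the ROR element core TAGGTCA in 2 (4.65%, against 2.23% of all), those of *Adamtsl5* and *Mmp10*. The E-box of *Adam10*, which lies on the plus strand and starts 64 bases before the start, is shown with capitals because *Adam10* had the highest level per kilobase of these.
Adam10 (chr9:70678891-70678950): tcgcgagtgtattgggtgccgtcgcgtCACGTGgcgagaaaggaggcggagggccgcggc
None of these 5 genes was called. Each match describes letters in a window and no binding was measured.

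The other parts of the pathway were read from lists of activators, further inhibitors and substrates. Of 19 activators, 1 was called, *Plat*, which encodes tissue plasminogen activator and so makes the plasmin that activates several pro-MMPs. It had 360, 400 and 316 CPM in *Bmal1-/-* replicates 1 to 3 and 125, 116, 133 and 121 CPM in WT replicates 1 to 4. The lowest library labelled *Bmal1-/-* was more than double any WT library (log2FC 1.53, SE 0.09, edgeR adjusted p = 0.000557). The call held in all 7 fits without 1 library. *Klk6*, a kallikrein of oligodendrocytes, had 443, 543 and 413 CPM against 211, 288, 319 and 344 CPM without overlap (edgeR adjusted p = 0.111, DESeq2 adjusted p = 0.00773). *Bsg*, the MMP inducer basigin, had 551 to 563 CPM against 469 to 532 CPM. DESeq2 called 3 of the 19 activators higher and 2 lower, beside 3.5% and 5.63% of the genes it tested. The 2 lower ones, *Plaur* and *Rhbdf1*, had log2FC values of -0.79 and -0.30 (DESeq2 adjusted p = 0.0351 and 0.0112). Both were chosen after their values were seen, as was *Plg*, the plasminogen gene, which had a mean of only 8.29 counts. In the edgeR fit, 10 of the 19 had negative and 9 had positive log2FC values.

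Among 9 further inhibitors and clearance receptors, edgeR called 0, while DESeq2 called 3 higher and 0 lower. Of all genes it tested, DESeq2 called 3.5% higher and 5.63% lower. *Serpina3n*, a reactive astrocyte serpin, had 2150, 2650 and 2010 CPM against 1540, 1460, 1830 and 1630 CPM, and *Cst3*, cystatin C, had 1200, 1320 and 1250 CPM against 878, 954, 802 and 1050 CPM. Both were separate between groups (edgeR adjusted p = 0.136 and 0.109, DESeq2 adjusted p = 0.00548 and 0.00109). Whether either protein acts on the proteases described here was not tested. *A2m*, the plasma-type inhibitor that traps most of these proteases, was chosen after its values were seen. It had 1080, 1010 and 689 CPM against 357, 546, 474 and 471 CPM (log2FC 1.00, SE 0.19, edgeR adjusted p = 0.0579, DESeq2 adjusted p = 4.79e-05). Of 9 other metzincins, 5 were tested and 0 called, with *Bmp1*, a procollagen C-proteinase, at a log2FC of -0.15 and *Pappa* at 0.37.

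In the substrate lists edgeR called 0 genes. DESeq2 called 3 basement membrane and collagen genes lower, 1 proteoglycan or tenascin gene higher and 1 lower, and 1 shed substrate higher. Over all genes it tested, the shares were 5.63% lower and 3.5% higher. Of 15 basement membrane and collagen genes, 13 had negative fold changes. Their median was -0.40 on the log2 scale, beside -0.006 for all genes tested. The median of these 15 was -0.08 without *Bmal1-/-* replicate 1 and -0.04 without *Bmal1-/-* replicate 3, and -0.61 without *Bmal1-/-* replicate 2. *Fn1*, fibronectin, had 738, 871 and 606 CPM against 1530, 1030, 1560 and 1310 CPM (log2FC -0.88, SE 0.19, edgeR adjusted p = 0.0749, DESeq2 adjusted p = 0.000273), with no overlap. *Col1a1* had 119, 640 and 88.2 CPM against 389, 461, 314 and 324 CPM and followed *Bmal1-/-* replicate 2, like *Mmp3*. Of 8 proteoglycan and tenascin genes cut by ADAMTS proteases, *Ncan*, neurocan, had 308, 276 and 243 CPM against 155, 142, 114 and 186 CPM (log2FC 0.88, SE 0.16, edgeR adjusted p = 0.0518, DESeq2 adjusted p = 4.18e-05). *Bcan*, brevican, had 99.9, 107 and 135 CPM against 148, 133, 88.5 and 157 CPM. The 18 substrates shed by ADAM10 and ADAM17 had a median log2FC of -0.12, with *App* at 0.24 and *Tnfrsf1a* at -0.28. These lists were not tested as sets.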

How the data were processed

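RNA of 7 contused cords was made into stranded poly-A libraries. Per the study's methods and the submitters' processing notes, the authors checked reads with FastQC 0.10.1, aligned them to mm10 (GRCm38) with Tophat2 2.0.13 and counted them per gene with HTSeq 0.10.0. The annotation release and strand setting are not given in the sources used here. The deposited values are raw counts, whole numbers without normalization. Members, lists and role classes were chosen with earlier results of these data known. Genotypes were compared with edgeR 4.0.16 (limma 3.58.1, R 4.3.3): filterByExpr, TMM factors, glmQLFit and glmQLFTest on genotype, Benjamini-Hochberg adjustment over the 15743 genes tested and a threshold of 0.05. CPM are counts over TMM-scaled library sizes. Exon lengths, positions and overlaps came from GENCODE release 21, which held 21939 of the 21965 gene IDs. Mice are the replicates, and no pair of libraries agreed within sampling noise. The named members were all called members, all Timp genes, the most abundant per kilobase of each role class, those with an unadjusted p under 0.05 and no overlap, and 12 fixed for known roles. Partner genes were named where called or among the most abundant of their list. Genes that overlap a member are given beside it, and other genes are marked as chosen after their values were seen. Alternatives were DESeq2 1.42.0, limma-voom, RLE and upper-quartile factors, no filter, a minimum mean of 10 counts, sex as covariate, a replicate block and each library left out. The fit without both *Bmal1-/-* replicate 2 and WT replicate 3 was added after seeing the data. The test was tested on simulated data. Promoters came from the RefSeq table of GRCm38.p6, where 39 of 63 members matched. Figures used matplotlib 3.10.9 and python 3.11.15.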

Additional observations from a re-analysis of the deposited data

How the results depend on the processing

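The count of lower members moved with the settings. It was 4 with all 7 libraries, 10 with DESeq2, 0 with a replicate block, 0 to 6 with 1 library left out and 10 without *Bmal1-/-* replicate 2 and WT replicate 3. The count of higher members was 0, and 1 with DESeq2, 0 to 1 with 1 library left out and 1 without both libraries. The gene added in each case was *Mmp14*. Limma-voom, other scaling factors, other filters and sex as covariate kept the counts within 1.5 times, although *Adamts7* missed the threshold with sex as covariate (edgeR adjusted p = 0.0703). Deviations of same-numbered libraries from their group means had correlations of -0.174, 0.183 and -0.295, against -0.286 to 0.335 for other pairs. So few values cannot decide whether the numbers pair the mice, and WT replicate 4 had no same-numbered partner. With the block, the log2 fold changes of the called members were -0.82 for *Timp3*, -1.01 for *Mmp19*, -1.9 for *Adamts8* and -1.07 for *Adamts7*, with edgeR adjusted p-values of 0.205, 0.33, 0.121 and 0.334, and *Plat* missed the threshold as well (edgeR adjusted p = 0.116). *Arntl* kept a log2 fold change of 0.77 under the block (edgeR adjusted p = 0.233) and ran from 0.71 to 0.82 with 1 library left out, where its call was lost in 4 of 7 fits. Genes near 0 changed sign. *Mmp8* ran from -0.44 to 0.01 with 1 library left out and was 0.01 without both libraries, *Mmp11* ran from -0.25 to 0.05 and was 0.03, *Adamts2* ran from -0.63 to 0.03, and *Adamts5* from -0.02 to 0.29. *Adamtsl4* ran from -0.06 to 0.12 and was -0.02 with upper-quartile factors. *Mmp9* ran from -0.17 to 0.18, and was -0.01 with the block and -0.08 without both libraries. *Mmp3* ran from -2.23 to 1.63, and was -0.25 with limma-voom, -0.56 with the block and -2.49 without both libraries. The cause of these moves was not tested. The median log2 fold change of all genes was -0.034 with upper-quartile factors and -0.001 with RLE size factors. Depth limits the rarest members, such as *Mmp10* with 1 to 37 counts per library.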

Other observations

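The genotype effect was also compared between females and males, with 1 male among the mice labelled *Bmal1-/-*. The interaction of genotype and sex had an adjusted p under 0.05 in 0 members and in 0 of 15743 genes (edgeR's quasi-likelihood test), with an unadjusted p under 0.05 in 10 members and in 12.3% of all genes. Among chromosome 8 neighbours, *Adam3* and *Adam5* had log2 fold changes of -0.64 and -0.50, and *Adam32* and *Adam9* beside them had 0.43 and 0.07. None of these passed the test, and *Adam3*, *Adam5* and *Adam32* had means of only 26.4, 26.1 and 34.1 counts. Of 32 members that varied over 1.5-fold across WT, WT replicate 3 was highest in 12 and lowest in 12.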
